A study of Mus musculus with 8 samples.

Results

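A set of genes of glucose breakdown and of the response to low oxygen were followed in macrophages from infarcted mouse hearts. They form a list of 33 named genes, taken by symbol from the 53342 gene identifiers of the deposited tables. Of these, 20 encode proteins of glucose uptake, glycolysis and the handling of pyruvate and lactate, and 13 encode oxygen sensing proteins or other targets of hypoxia-inducible factor (HIF). All 33 were present in the tables, and 22 had enough counts to be tested for differences between groups.

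Glycolysis splits glucose into pyruvate in the cytosol and yields ATP without oxygen. Lactate dehydrogenase turns pyruvate into lactate, and pyruvate dehydrogenase kinases keep pyruvate out of the mitochondria. HIF1α, the protein made from Hif1a, is hydroxylated by prolyl hydroxylases and degraded when oxygen is present. When it is stable it binds hypoxia response elements and switches on many glycolytic genes, and macrophages activated by inflammatory signals are known to rely on glycolysis.

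The cells came from wild type C57BL/6 mice aged 8 weeks, 3 days after myocardial infarction. Macrophages with high and low surface Ly6C (Ly6Chi and Ly6Clo) were sorted from the infarcted heart and kept in culture for 24 hours with interleukin 21 (IL-21, 100 ng/mL) or without it. Each of the 4 groups had 2 libraries, numbered 1 and 2 in the sample titles, and no label says whether a number stands for a mouse, a pool of mice or a culture, so p-values measure only the spread between these libraries, which may be technical. All groups share the genotype, the infarction and the culture, and cells taken straight from the heart were not analysed here.

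Libraries of the 3' ends of messenger RNA gave 224329 to 483593 counts each, so 3 counts correspond to 6.58 to 14.9 CPM (counts scaled to one common library size). Each transcript is read at one end, so CPM were compared between genes without division by length. Of 12 macrophage markers 11 had counts, with Itgam at 0, and their sum was 10584 to 12996 CPM in libraries numbered 1 and 8516 to 9552 in those numbered 2. Ly6c2, the gene behind the sort, was at 372 to 545 CPM in Ly6Chi and 11.99 to 74.6 CPM in Ly6Clo libraries. Summed neutrophil markers were 1400 to 2338 CPM in Ly6Chi and 641 to 1262 CPM in Ly6Clo libraries, nearly all of it Mmp8 (538 to 2154 CPM over the 8 libraries), with the defining genes Ly6g, Retnlg, Ngp and Ltf at 0. Summed endothelial markers were 66.4 to 148 CPM in libraries numbered 1 and 197 to 343 CPM in those numbered 2, with Tie1 and Emcn at 0. Summed platelet markers were 1712 to 2002 CPM without and 2903 to 3758 CPM with IL-21, nearly all of it Pf4 (1675 to 3549.9 CPM over the 8 libraries), with the defining genes Itga2b, Gp9 and Gp1bb at 0.

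The most abundant gene on the list was Pkm, which encodes pyruvate kinase, the enzyme of the last step of glycolysis. It averaged 981 ± 167 CPM (SD, n = 8 libraries) and was above every other listed gene in 8 of 8 libraries. Aldoa, aldolase A, averaged 439 ± 100.1 CPM and was above Ldha in 7 of 8 libraries. Ldha, lactate dehydrogenase A, averaged 349 ± 81.6 CPM and was above Hif1a in 8 of 8. Hif1a averaged 169 ± 65.1 CPM and was above Hk2 in 5 of 8, so this order did not hold in every library. Hk2, the inducible hexokinase that traps glucose in the cell, averaged 112 ± 24.7 CPM.

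The other tested genes lay below. Tpi1 (triose phosphate isomerase) averaged 107 CPM, Gpi1 (glucose phosphate isomerase) 89.8 CPM and P4ha1 (a collagen prolyl hydroxylase) 83.6 CPM. Bhlhe40, a transcription repressor, averaged 78.1 CPM, Slc2a1, the glucose transporter GLUT1, 68.8 CPM and Pfkfb3, which makes the activator of phosphofructokinase, 66.3 CPM. Each of these neighbours was above the next in only 3 to 5 of 8 libraries, so their levels were not separated beyond the spread. The lowest tested genes included Pdk1, a pyruvate dehydrogenase kinase, at 28.0 CPM.

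Too few counts for the test were found for 11 listed genes, 6 of them HIF targets or oxygen sensors. Egln3, a prolyl hydroxylase and a classical HIF target, had 2 counts over all 8 libraries, both in Ly6Chi with IL-21 number 1, where they made 7.53 CPM. Vegfa, the vascular growth factor, had 19 counts, at 4.10 and 0 CPM in Ly6Chi without IL-21, 22.6 and 0 with it, 16.6 and 2.19 in Ly6Clo without, 11.99 and 9.86 with (numbers 1 and 2 in this order, here and in the values that follow). Slc2a3 and Ankrd37 had 3 counts each and Ddit4 had 4. Between 24 and 67 counts were found for Pgk1, Pfkl, Pfkfb4, Higd1a, Bnip3 and Pgam1. These 11 genes are given by their levels, with no test.

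**Figure D1:**
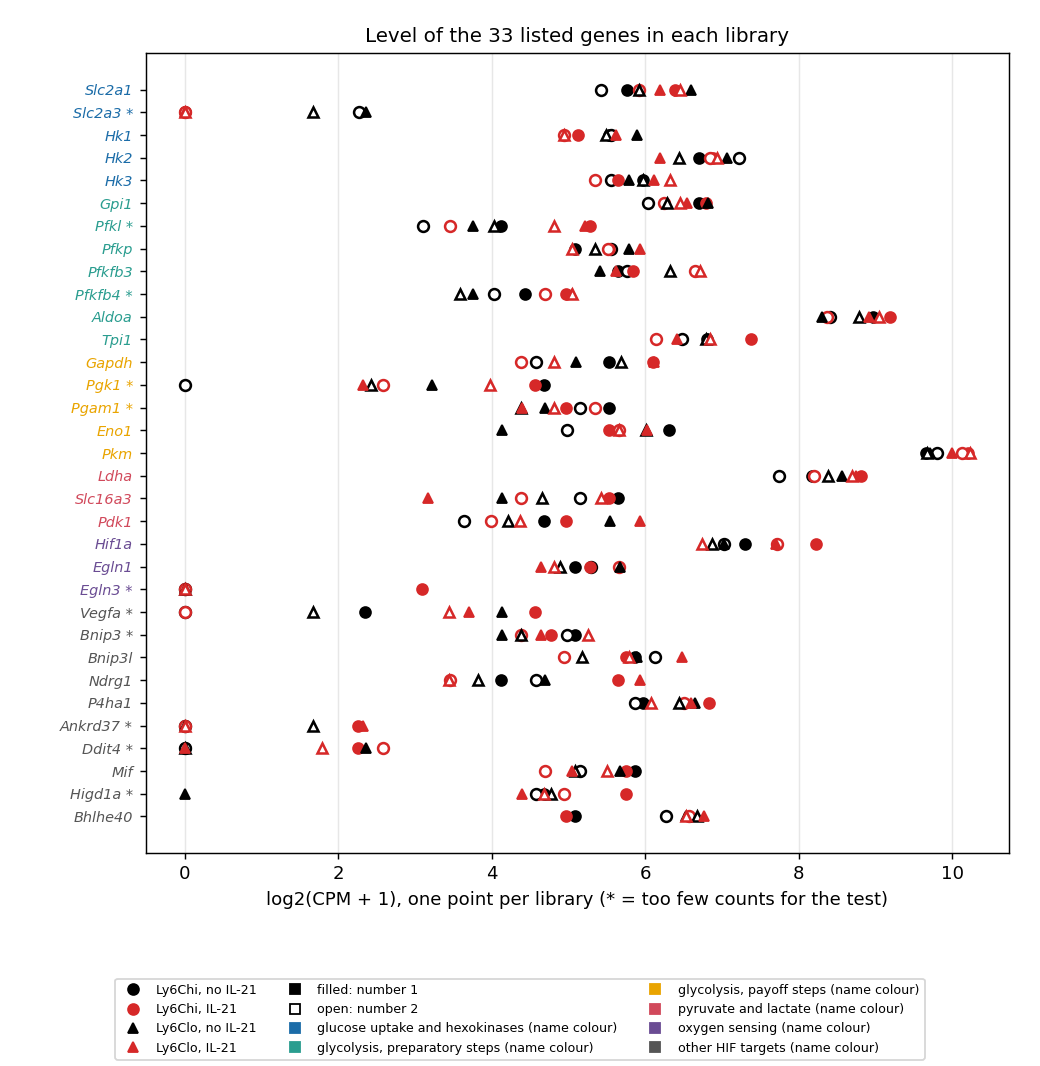
Level of each of the 33 listed genes, as log2(CPM + 1) on the horizontal axis, with 1 point per library. Colour of the point shows IL-21, shape the subset and filling the library number, and a star marks the 11 genes with too few counts for the test. Pkm lies to the right of all others, at 804 to 1195 CPM.

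The start regions of the genes that lead the comparisons below are shown because HIF binds such regions at a short core. RefSeq promoter windows of 300 bases (250 before to 50 after a gene's start, GRCm38.p6) were found for 29 of the 33 genes, 39 windows in all. The core letters ACGTG and GCGTG were searched on both strands, and the palindrome CACGTG gives a match to ACGTG on each strand. ACGTG was in 24 of the 39 windows (61.5%) against 19.6% of all 32851 windows, and GCGTG in 21 (53.9%) against 32.4%. Either core was in 32 of the 39 (82.1%) against 43.8% of all, and 27 genes had at least 1 window with a match. A match describes the letters only. The list was chosen for glycolysis and the HIF response, so higher shares than over all windows could be foreseen. Some windows of the same gene overlap, and the windows were not matched for base content. The shares are therefore no test of HIF binding in these cells. Matches are in capitals, and where a gene has 2 windows the one with more matches is given.

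Pkm (ENSMUSG00000032294, protein coding) is shown at chr9:59656977-59657276 on the plus strand, with 2 matches. The Ldha window (ENSMUSG00000063229) is chr7:46845554-46845853, plus strand, with 7 matches. For Hif1a (ENSMUSG00000021109) it is chr12:73907617-73907916, plus strand, with 3 matches. Pdk1 (ENSMUSG00000006494) is given at chr2:71872974-71873273, plus strand, with 2 matches, and Pfkfb3 (ENSMUSG00000026773) at chr2:11502041-11502340, minus strand, with 4.
Pkm: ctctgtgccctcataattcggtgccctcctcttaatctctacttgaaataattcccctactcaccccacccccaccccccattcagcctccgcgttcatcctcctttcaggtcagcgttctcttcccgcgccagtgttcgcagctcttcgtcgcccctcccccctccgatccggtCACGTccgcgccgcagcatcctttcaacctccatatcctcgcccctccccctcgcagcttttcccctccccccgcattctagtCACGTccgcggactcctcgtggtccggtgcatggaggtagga
Ldha: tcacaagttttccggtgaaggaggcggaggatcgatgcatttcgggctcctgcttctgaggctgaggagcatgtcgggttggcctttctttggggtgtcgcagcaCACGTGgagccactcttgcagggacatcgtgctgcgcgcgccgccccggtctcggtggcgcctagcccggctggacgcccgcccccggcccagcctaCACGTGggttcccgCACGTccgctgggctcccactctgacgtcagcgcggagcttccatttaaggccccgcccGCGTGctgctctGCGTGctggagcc
Hif1a: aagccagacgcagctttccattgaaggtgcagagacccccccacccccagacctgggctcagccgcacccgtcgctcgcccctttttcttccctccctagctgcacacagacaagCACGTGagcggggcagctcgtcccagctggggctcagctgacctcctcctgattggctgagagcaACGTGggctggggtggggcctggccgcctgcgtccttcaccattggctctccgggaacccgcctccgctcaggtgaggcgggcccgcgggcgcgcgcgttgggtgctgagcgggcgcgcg
Pdk1: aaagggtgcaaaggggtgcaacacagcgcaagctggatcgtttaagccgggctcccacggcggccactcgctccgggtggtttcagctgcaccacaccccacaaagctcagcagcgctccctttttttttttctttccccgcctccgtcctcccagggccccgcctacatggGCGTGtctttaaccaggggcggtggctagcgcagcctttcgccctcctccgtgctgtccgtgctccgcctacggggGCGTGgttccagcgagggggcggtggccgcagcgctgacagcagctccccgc
Pfkfb3: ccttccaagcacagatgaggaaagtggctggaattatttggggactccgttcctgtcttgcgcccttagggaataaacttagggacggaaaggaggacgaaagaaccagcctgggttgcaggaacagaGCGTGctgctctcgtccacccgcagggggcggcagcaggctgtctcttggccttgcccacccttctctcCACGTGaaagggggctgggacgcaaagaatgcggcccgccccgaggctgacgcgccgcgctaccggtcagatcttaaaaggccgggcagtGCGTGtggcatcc

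The 5 windows differ in which core they hold. The Pkm and Hif1a windows hold ACGTG alone, Ldha and Pfkfb3 hold both cores, and Pdk1 holds GCGTG alone. The 7 matches of Ldha include 2 copies of the palindrome CACGTG.

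The first question was whether IL-21 moved these genes. No listed gene passed the test (edgeR's quasi-likelihood test, Benjamini-Hochberg adjusted p under 0.05 over the 5256 genes tested) for IL-21 in Ly6Chi, in Ly6Clo or averaged over both. Among all genes tested, 0.019% passed in Ly6Chi, 0.133% in Ly6Clo and 0.171% on average, so a share near 0 among 22 genes is what the background gives. DESeq2 and limma-voom also gave 0 of the listed genes in each of these 3 comparisons. At an unadjusted p under 0.05 edgeR gave 3 of 22 in Ly6Chi, 0 in Ly6Clo and 3 on average. Over all 5256 genes tested it gave 185, 185 and 280.

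On average over subsets Pkm, Hif1a and Ldha had the smallest p-values, in this order, and in Ly6Chi Hif1a had the smallest. Pkm was at 804 and 889 CPM in Ly6Chi without IL-21 and at 1178 and 1117 with it, and at 835 and 812 in Ly6Clo without and 1019 and 1195 with it. All 4 libraries with IL-21 were above all 4 without, and Pkm was the only tested gene of the 22 that did not overlap, against 2.19% of all genes tested that were wholly higher and 1.52% that were wholly lower with IL-21. The log2 fold change averaged over subsets was 0.43 (SE 0.15, edgeR adjusted p = 0.700), a 1.35-fold difference between means of 1128 ± 79.6 and 835 ± 38.2 CPM (SD, n = 4 each). With the library number as a block it was 0.44 (SE 0.105, edgeR adjusted p = 0.0279) and passed the test. More of all genes tested also passed with the block than without it, in the counts given in the last section. The log2 differences of Pkm within a number were 0.55 and 0.33 in Ly6Chi and 0.29 and 0.56 in Ly6Clo.

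Ldha was at 287 and 214 CPM in Ly6Chi without IL-21 and at 448 and 293 with it, and at 378 and 334 in Ly6Clo without and 428 and 414 with it. It was higher with IL-21 in all 4 pairs of same-numbered libraries, but the groups overlapped because Ly6Chi with IL-21 number 2 lay below both Ly6Clo libraries without it. The averaged log2 fold change was 0.41 (SE 0.18, edgeR adjusted p = 0.872). With the library number as a block it was 0.41 (SE 0.135, edgeR adjusted p = 0.196) and did not pass. The unblocked value in Ly6Chi was 0.58 (SE 0.26), with the difference between the means of 2 libraries smaller than the range within the treated group.

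Hif1a was at 156 and 129.7 CPM in Ly6Chi without IL-21 and at 297 and 209 with it, and at 129 and 116 in Ly6Clo without and 208 and 106 with it. The Ly6Chi groups did not overlap, while Ly6Clo with IL-21 number 2 was the lowest of all 8 libraries. Non-overlap of 2 against 2 libraries was not counted over all genes, so no effect is read from it, here or below. The log2 fold change was 0.84 (SE 0.33) in Ly6Chi and 0.58 (SE 0.23, edgeR adjusted p = 0.823) on average. With the library number as a block the average was 0.54 (SE 0.177, edgeR adjusted p = 0.198) and did not pass. Within a number it was 0.92 and 0.68 in Ly6Chi and 0.68 and -0.13 in Ly6Clo.

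P4ha1 was at 61.5 and 57.2 CPM in Ly6Chi without IL-21 and at 113 and 89.4 with it, and at 99.7 and 85.6 in Ly6Clo without and 95.9 and 66.5 with it. Its log2 fold change was 0.78 (SE 0.36) in Ly6Chi and did not pass. Bnip3l, a receptor for the removal of mitochondria, was at 57.4 and 68.6 CPM in Ly6Chi without IL-21 and 52.7 and 29.8 with it, and at 58.1 and 35.1 in Ly6Clo without and 87.9 and 54.2 with it. It lay lower with IL-21 in both Ly6Chi libraries and overlapped in Ly6Clo, where the log2 fold change was 0.63 (SE 0.41). Aldoa was at 500.2 and 339 CPM in Ly6Chi without IL-21 and 579.8 and 328 with it, and at 316 and 441 in Ly6Clo without and 479.6 and 525 with it. In Ly6Clo the Aldoa groups of 2 libraries each did not overlap, a pattern not counted over all genes. The log2 fold change there was 0.40 (SE 0.29) and did not pass.

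The genes of glucose uptake and its first step came next. Slc2a1 was at 53.3 and 42.0 CPM in Ly6Chi without IL-21 and 82.8 and 59.6 with it, and at 95.5 and 59.3 in Ly6Clo without and 71.9 and 86.3 with it. Hk2 was at 102 and 149 CPM in Ly6Chi without IL-21 and 117 and 114 with it, and at 133 and 85.6 in Ly6Clo without and 71.9 and 121 with it. Slc2a1 did not overlap between treatments in Ly6Chi, where its log2 fold change was 0.60 (SE 0.40), but did in Ly6Clo, and its averaged value was 0.35 (SE 0.27). Hk2 overlapped in both subsets, and neither gene had an unadjusted p under 0.05. Hk1 was the only listed gene lower with IL-21 in all 4 same-numbered pairs (range 29.6 to 58.1 CPM over the libraries), against 8.87% of all genes tested.

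As a group, 18 of 22 tested genes had a log2 fold change above 0 on average over subsets, 13 of 15 in glycolysis and pyruvate handling and 5 of 7 among oxygen sensors and HIF targets. The median was 0.07 for the 22 genes and -0.01 for all genes tested, of which 48.9% were above 0. In Ly6Chi 15 of 22 were above 0 with a median of 0.23, which became -0.13 without Ly6Chi with IL-21 number 1. In Ly6Clo 14 of 22 were above 0 with a median of 0.18. Higher with IL-21 in all 4 same-numbered pairs were 4 of 22 genes, Pfkfb3, Pkm, Ldha and Pdk1, all of the glycolysis and pyruvate group, against 9.89% of all genes tested. Summed over the 20 glycolysis and pyruvate genes, the level was 2136 to 2452 CPM without and 2453 to 3174 CPM with IL-21, and over the 13 others 463 to 540 and 473 to 749 CPM. The first pair of ranges did not overlap by a narrow margin, and the second pair overlapped. The bordering libraries were Ly6Chi number 1 without IL-21, at 2451.6 CPM, and Ly6Chi number 2 with it, at 2452.7 CPM. Pkm was at 804 CPM in the former and 1117 CPM in the latter. Without Pkm the sum was therefore lower in the latter, so the ranges of the other genes overlapped. Pkm had the highest level of the 20 and, with the means given above, made up much of the first difference, while the summed level of the transporters and hexokinases overlapped, at 252 to 345 CPM without and 243 to 315 CPM with IL-21. The summed platelet markers, in the ranges given above, were also higher with IL-21 in every library, and their part in these values was not tested. Fewer cells of a type and less RNA per cell cannot be told apart in such bulk libraries.

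**Figure D2:**
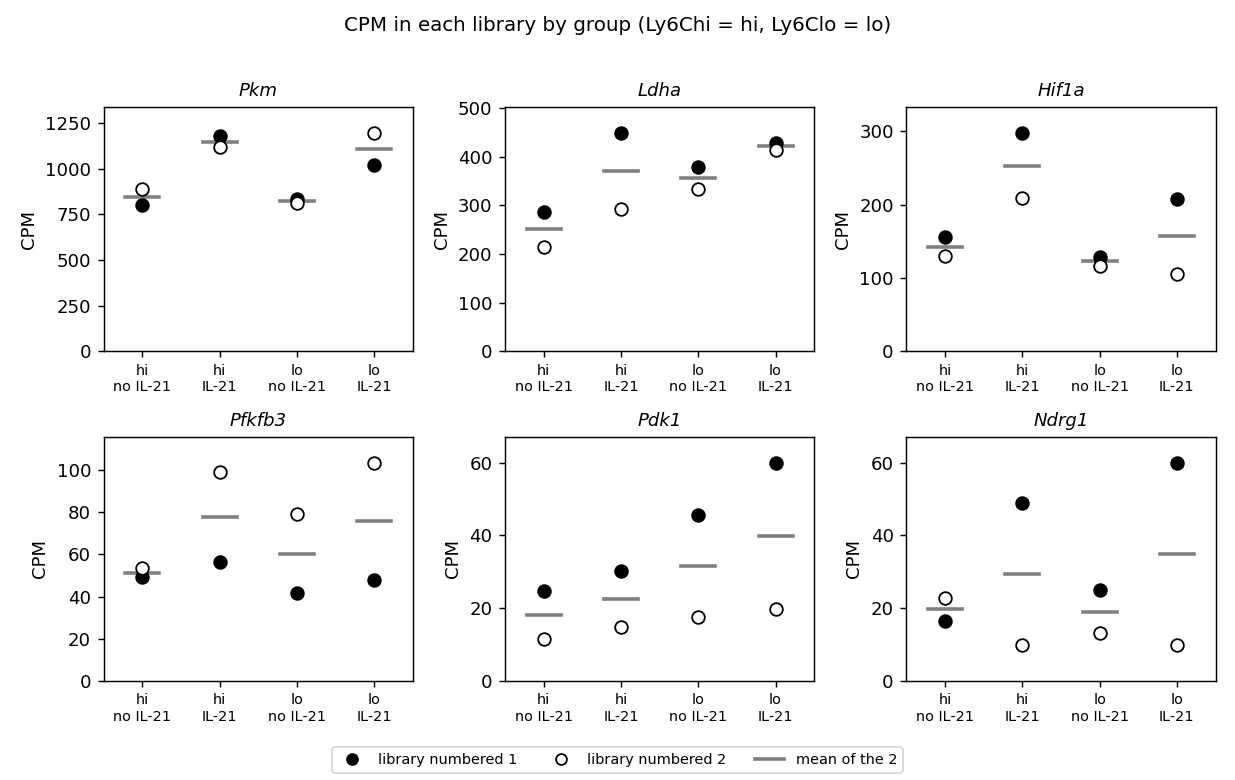
CPM in each library for Pkm, Ldha, Hif1a, Pfkfb3, Pdk1 and Ndrg1, by group on the horizontal axis. Filled points are libraries numbered 1, open points those numbered 2 and the bar is the mean of the 2. Pkm separates with IL-21, at 1019 CPM or more against 889 or less, and Pdk1 separates by number, at 24.6 CPM or more against 19.7 or less.

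Among the genes too low to test, Pfkfb4, a second enzyme making the phosphofructokinase activator, was at 20.5 and 15.3 CPM in Ly6Chi without IL-21 and 30.1 and 24.8 with it, and at 12.5 and 10.97 in Ly6Clo without and 32.0 and 32.0 with it. The 4 libraries with IL-21 lay above the 4 without, on 3 to 13 counts each, so counting error is large. It was named after its values were seen.

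Whether IL-21 acted differently in the subsets was tested as a difference of the 2 effects. No listed gene passed by edgeR, DESeq2 or limma-voom, none had an unadjusted p under 0.05 in edgeR without the block, and 0% of all genes tested passed. At the same unadjusted cutoff edgeR without the block gave 92 of all 5256 genes tested. With the library number as a block, edgeR gave Bnip3l an unadjusted p of 0.0334 and P4ha1 one of 0.0379, and neither passed after adjustment. The count over all genes at this cutoff with the block is not given here, so no effect is read from these p-values. Without the block, the smallest p-values belonged to P4ha1, Bnip3l and Hk3, a myeloid hexokinase, in this order. Their differences on the log2 scale were -0.98 (SE 0.48), 1.20 (SE 0.61) and 0.59 (SE 0.52). Hk3 was at 61.5 and 45.8 CPM in Ly6Chi without IL-21 and 48.9 and 39.7 with it, and at 54.0 and 61.5 in Ly6Clo without and 68.0 and 78.9 with it. For Hif1a the difference without the block was -0.52 (SE 0.46).

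The subsets were compared next. No listed gene passed for Ly6Clo against Ly6Chi without IL-21, with it or averaged, by edgeR, DESeq2 or limma-voom. Of all genes tested 0.0381%, 0.019% and 0.19% passed in the 3 comparisons, in this order, and the last was 0.0951% higher and 0.0951% lower. At an unadjusted p under 0.05 edgeR without the block gave 0, 1 and 1 of the 22 listed genes. Over all 5256 genes tested it gave 238, 277 and 409.

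Bhlhe40 had the smallest p in the averaged comparison. It was at 32.8 and 76.3 CPM in Ly6Chi without IL-21 and 30.1 and 94.3 with it, and at 91.3 and 101 in Ly6Clo without and 108 and 91.2 with it. Both Ly6Chi libraries numbered 1 were low, and Ly6Chi with IL-21 number 2 reached the Ly6Clo range, so the groups overlapped. The log2 fold change was 0.77 (SE 0.33, edgeR adjusted p = 0.561) between means of 58.4 ± 32.0 and 97.9 ± 8.12 CPM (SD, n = 4 each). With the library number as a block it was 0.75 (SE 0.275, edgeR adjusted p = 0.175) and did not pass.

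Hif1a was lower in Ly6Clo in all 4 same-numbered pairs, against 11.1% of all genes tested. With IL-21 its log2 difference was -0.74 (SE 0.32, edgeR adjusted p = 0.913), and averaged it was -0.48 (SE 0.23, adjusted p = 0.637). With the library number as a block these were -0.74 (SE 0.238, edgeR adjusted p = 0.215) and -0.46 (SE 0.178, adjusted p = 0.201). Without the block Ldha differed by 0.50 (SE 0.26) without IL-21 and by 0.34 (SE 0.18, edgeR adjusted p = 0.671) on average. With the block the average for Ldha was 0.36 (SE 0.136, edgeR adjusted p = 0.183). Hk3 differed by 0.72 (SE 0.37) with IL-21 without the block. The log2 difference of P4ha1 without IL-21 was 0.62 (SE 0.35) without the block. Hif1a and Ldha thus had opposite signs, and neither passed with or without the block.

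Over the 22 genes, 13 were above and 9 below 0 in Ly6Clo against Ly6Chi on average, with a median of 0.06 against 0.00 over all genes tested. The glycolysis and pyruvate genes were above 0 in 10 of 15 cases with a median of 0.08, and the oxygen sensors and HIF targets in 3 of 7 with a median of -0.08. Pdk1 was the only listed gene higher in Ly6Clo in all 4 same-numbered pairs, against 10.6% of all genes tested. No listed gene that was tested separated the 4 Ly6Clo from the 4 Ly6Chi libraries, while 2.64% of all genes tested were wholly higher and 2.74% wholly lower in Ly6Clo. Among the genes too low to test, Pgam1, phosphoglycerate mutase, was at 45.1 and 34.3 CPM in Ly6Chi without IL-21 and 30.1 and 39.7 with it, and at 24.9 and 19.8 in Ly6Clo without and 19.99 and 27.1 with it. All 4 Ly6Clo libraries lay below all 4 Ly6Chi libraries, on 5 to 11 counts each, and it was named after its values were seen. Ly6Chi libraries also held more of the summed neutrophil markers, in the ranges given above, and their part was not tested.

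**Figure D3:**
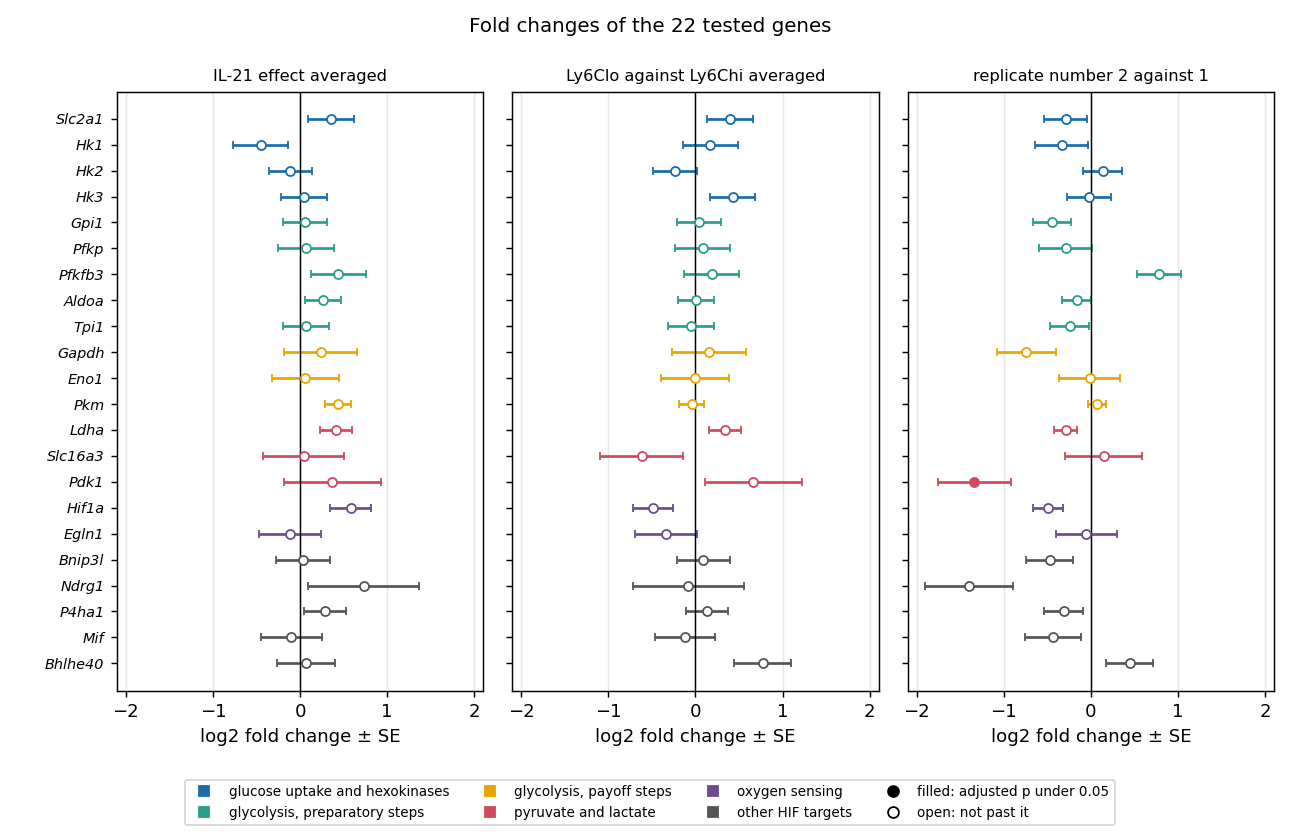
Log2 fold change with its SE for the 22 tested genes in 3 comparisons: IL-21 averaged over subsets, Ly6Clo against Ly6Chi averaged, and library number 2 against 1. The only filled point, an adjusted p under 0.05, is Pdk1 at -1.34 in the comparison of numbers, where 17 of 22 points lie below 0.

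Libraries were also compared by their number. In a model with the 4 groups and the number, 8.2% of all genes tested passed for number 2 against number 1, 4.6% higher and 3.6% lower. Of the 22 listed genes 1 passed, Pdk1, which is no larger a share than among all genes. Pdk1 was at 24.6 and 11.4 CPM in Ly6Chi without IL-21, 30.1 and 14.9 with it, 45.7 and 17.6 in Ly6Clo without and 60.0 and 19.7 with it. All 4 libraries numbered 1 were above all 4 numbered 2. It fell by 1.34 on the log2 scale (SE 0.42, edgeR adjusted p = 0.0464), from 40.1 ± 16.0 to 15.9 ± 3.57 CPM (SD, n = 4 each). The call rests on 62 counts in all, and without any 1 of the 8 libraries the adjusted p was 0.0601 to 0.305.

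Pfkfb3 lay the other way without passing. It was at 49.2 and 53.4 CPM in Ly6Chi without IL-21, 56.5 and 99.3 with it, 41.5 and 79.0 in Ly6Clo without and 48.0 and 104 with it. Number 2 was higher in all 4 groups, against 14.2% of all genes tested, with a log2 difference of 0.78 (SE 0.25, edgeR adjusted p = 0.0534). With 1 library left out the log2 difference of Pfkfb3 was 0.64 to 0.95. Its status as not passing was unchanged in 13 of 15 alternatives.

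Hif1a and Ndrg1 had lower values in number 2. The log2 difference of Hif1a was -0.49 (SE 0.18, edgeR adjusted p = 0.0899), lower in all 4 groups. Ndrg1, a stress response gene, was at 16.4 and 22.9 CPM in Ly6Chi without IL-21, 48.9 and 9.93 with it, 24.9 and 13.2 in Ly6Clo without and 60.0 and 9.86 with it. It was lower in number 2 in 3 of 4 groups, by -1.40 on the log2 scale (SE 0.50, adjusted p = 0.0907). Ndrg1 passed where either Ly6Chi library without IL-21 was left out.

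Gapdh, the dehydrogenase often used as a reference gene, was at 45.1 and 22.9 CPM in Ly6Chi without IL-21, 67.8 and 19.9 with it, 33.2 and 50.5 in Ly6Clo without and 68.0 and 27.1 with it. Number 1 was higher in 3 of 4 groups, with a log2 difference of -0.74 (SE 0.34). Mif, a cytokine and HIF target, was at 57.4 and 34.3 CPM in Ly6Chi without IL-21, 52.7 and 24.8 with it, 49.8 and 32.9 in Ly6Clo without and 32.0 and 44.4 with it, and was likewise higher in number 1 in 3 of 4 groups.

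In all, 17 of 22 listed genes were lower in number 2, with a median log2 difference of -0.29 against -0.00 over all genes tested. The median was -0.24 for the glycolysis and pyruvate genes, 11 of 15 of them lower, and -0.44 for the oxygen sensors and HIF targets, 6 of 7 lower. Within the groups the median was -0.30 in Ly6Chi without IL-21, -0.48 with it, -0.21 in Ly6Clo without and -0.08 with it. Gpi1, Ldha, Pdk1, Hif1a and P4ha1 were lower in number 2 in all 4 groups, 5 of 22 against 14.3% of all genes tested, and Gpi1 and Pdk1 did not overlap, 2 of 22 against 5.23% wholly lower and 5.84% wholly higher in number 2. The summed macrophage and endothelial markers separated by number as well, in the ranges given above. The macrophage sum followed Lyz2, at 4237 to 6773 CPM in number 1 and 2487 to 3446 in number 2, while Fcgr1 was higher in number 2 (709 to 1048 against 502 to 652 CPM) and Cd68 overlapped. The endothelial sum was nearly all Kdr, with 400 counts in total, while Pecam1 had 3 and Cdh5 and Esam 2 each. Depth differed by number in Ly6Clo, with 257385 and 269064 counts in number 1 (without and with IL-21) against 483593 and 444670 in number 2. In Ly6Chi it was 261205 and 287131 counts in number 1 and 284174 and 224329 in number 2. The part of these markers and of depth in the differences by number was not tested.

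Other genes of the same pathways gave few calls. Of 40 further glycolysis and pyruvate genes 10 were tested and of 43 further hypoxia response genes 19, and edgeR called 0 of these 29 in the 7 group comparisons. At an unadjusted p under 0.05 it gave 1 gene of each list for the averaged IL-21 effect, and 0 and 1 for the averaged subset difference. Over all 5256 genes tested it gave 280 and 409 in these 2 comparisons. In the averaged IL-21 effect the smallest p-values were those of Pgls, of the pentose phosphate pathway, at -0.66 (SE 0.27), and Cited2, a regulator of HIF activity, at -0.68 (SE 0.30). For Ly6Clo against Ly6Chi they were those of Hilpda, a lipid droplet protein induced by hypoxia, at 0.63 (SE 0.17, edgeR adjusted p = 0.239), and Ero1l, an oxidase of the endoplasmic reticulum, at -0.62 (SE 0.31).

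By library number, 2 of the 19 further hypoxia genes and 0 of the 10 further glycolysis and pyruvate genes passed, against 8.2% of all genes tested, and both are genes of iron and heme handling. Hmox1, heme oxygenase 1, was at 2620 to 4085 CPM in libraries numbered 1 and 7864 to 13838 in those numbered 2, and rose by 1.70 on the log2 scale (SE 0.09, edgeR adjusted p = 3.28e-13). Tfrc, the transferrin receptor, was at 241 to 419 CPM in number 1 and 54.6 to 143 in number 2, and fell by 1.67 (SE 0.16, adjusted p = 7.22e-08). Neither overlapped between numbers.

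Several listed genes share their 3' end with other genes, which bears on how much of their signal the tables hold. The last 500 bases of each coding transcript were compared with all GENCODE M21 transcripts, and shared stretches of at least 75 bases, the read length, at 95% identity or more were kept where the partner was a pseudogene or the stretch had 200 bases or more. Gapdh held 37.1% of the counts of itself and its near-identical copies, 57 of 99 copies having counts, and Pgk1 held 38.9%. Mif held 45.3%, most of the rest being in C230062I16Rik on the opposite strand, and Bnip3 held 45.4%, with Gm45507 on the opposite strand. Higd1a held 65.1%, Pfkp 74.4% and Eno1 82.5%. Pkm, Aldoa and Gpi1 held 99.0% each and Ldha 99.8%, and Gpi1 also shares stretches under 200 bases with coding genes such as Eprs.

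Gapdh averaged 41.8 CPM by itself and 115 CPM with its copies, and Pgk1, phosphoglycerate kinase, averaged 10.5 and 26.6 CPM. Pgk1 alone was at 24.6 and 0 CPM in Ly6Chi without IL-21, 22.6 and 4.96 with it, 8.30 and 4.39 in Ly6Clo without and 3.997 and 14.8 with it. Bnip3, another receptor for the removal of mitochondria, was at 32.8 and 30.5 CPM in Ly6Chi without IL-21, 26.4 and 19.9 with it, 16.6 and 19.8 in Ly6Clo without and 24.0 and 37.0 with it. The levels of these genes are therefore uncertain, and strand use is not stated, so reads of antisense partners cannot be told apart. With the copies added to their genes 25 listed genes were tested, and Pdk1 by library number was again the only call.

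**Figure D4:**
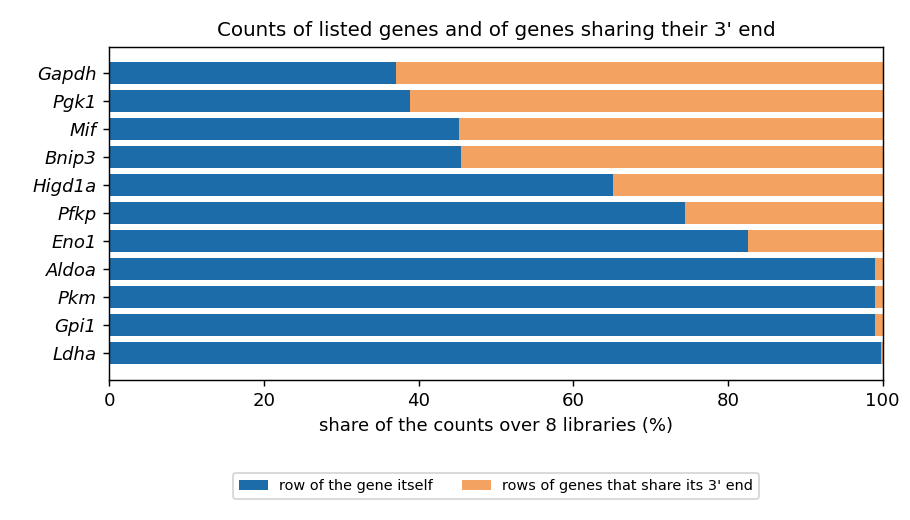
Share of the counts, in percent over 8 libraries, found under the listed gene itself and under genes that share its 3' end. Gapdh, Pgk1, Mif and Bnip3 hold 37.1% to 45.4%, and Aldoa, Pkm, Gpi1 and Ldha 99.0% or more.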

How the data were processed

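RNA was measured in 8 libraries. Each deposited table gives expected counts (estimated counts) per Ensembl gene, named raw per the file headers. The submitters' processing notes name mm10 and DESeq2 without a version. Not given in the sources used here are aligner, counter, annotation and the use of molecular identifiers and strand. Values were rounded first, since whole counts had been assumed. Of 53342 identifiers 53237 matched GENCODE M21.

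Genes were kept by filterByExpr (minimum count 10, minimum total 15), which left 5256. With TMM scaling, edgeR 4.0.16 (R 4.3.3, limma 3.58.1) fitted 4 group means over 8 libraries, with the robust quasi-likelihood test; library numbers were compared in a model of group and number. The fit was tested on simulated data with changes larger than those of the listed genes. For IL-21 the simulated libraries held no difference between library numbers. This does not show how well the fit finds smaller changes. Adjustment of p-values followed Benjamini and Hochberg across the 5256 genes. Shared 3' ends were found with blastn 2.17.0, and figures were drawn with matplotlib 3.10.9. The SE and p-values include the spread between these libraries as well as counting error.

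The labels do not say that numbers pair the libraries. Deviations from the group means correlated between same-numbered libraries of every pair of groups (Pearson's r over genes 0.215 to 0.389, 6 pairs), so the numbers were treated as pairs in the blocked fit. The members and lists were chosen with earlier results of these data known. Values in every library are given for genes called and for up to 3 with the smallest p in each comparison. They are also given for Hif1a, Slc2a1, Hk2, Ldha, Pgk1, Gapdh, Egln3, Vegfa, Bnip3 and Mif. Ndrg1, Pfkfb4 and Pgam1 were added after their values were seen. So were Hk1, given by its range, and Gpi1, given by its mean, each with its pattern over the libraries. Alternatives were DESeq2 1.42.0, limma-voom, other size factors and filters, unrounded values, the number as a block, only the groups compared, each library left out, and near-identical copies added (chosen after seeing the data).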

Additional observations from a re-analysis of the deposited data

How the results depend on the processing

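The number of listed genes called stayed at 0 in Ly6Chi and in Ly6Clo for IL-21, for the difference between these effects, and for the 3 subset comparisons under every alternative run. For the averaged IL-21 effect it was 1 with the replicate block, which is Pkm, and 0 under the others, each library left out included. The block changed no other call among the listed genes. For library number 2 against 1 it was 1 as reported, 0 with DESeq2, which gave Pdk1 no adjusted p, 0 with a mean of at least 20 counts, where Pdk1 was not tested, and 0 to 2 with 1 library left out. The 2 were Ndrg1 and Pfkfb3, without either Ly6Chi library without IL-21. Leaving out a library also removes what its partner adds to this comparison. Pdk1 ranged from -1.41 to -1.19 on the log2 scale over these fits and Pkm in the averaged IL-21 effect from 0.38 to 0.49. Of 581 single-gene values under alternatives 20 changed sign, all of genes called in neither fit. Depth limits these comparisons: Pdk1 had 62 rounded counts over 8 libraries and Pkm 2278. Over all genes tested, 9 passed for the averaged IL-21 effect as reported, 60 with the replicate block, 35 with no filter on low counts and 5 to 15 with 1 library left out. The averaged subset difference gave 10 as reported and 132, 58 and 3 to 22 under the same changes. For library number 431 passed as reported, 131 with DESeq2 and 177 to 419 with 1 library left out.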
